A study of Homo sapiens with 9 samples.

Results

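The nuclear genes for the subunits of respiratory complexes II, III, IV and V were followed in NCI-H295R cells, which derive from a human carcinoma of the adrenal cortex and secrete steroid hormones. The genes were taken by symbol alone: the 4 SDH subunit genes, CYC1, and every symbol that starts with UQCR, with COX followed by a number from 4 to 8, or with ATP5. A symbol counted where the annotation of the array gave a probe set that symbol and no other, and the brightest probe set represented the gene. This gave 48 members among 18417 genes, of which 3 belong to complex II (SDHA, SDHC and SDHD), 9 to complex III, 17 to complex IV and 19 to complex V. By the RefSeq gene table, 46 of them code for proteins and 2, UQCRBP1 and ATP5F1EP2, are pseudogenes. SDHB, UQCRFS1 and ATP5F1E were not analysed here, and neither were the subunits encoded by mitochondrial DNA.

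Complex II passes electrons from succinate to ubiquinone, complex III passes them from ubiquinol to cytochrome c, and complex IV hands them to oxygen. Complexes III and IV pump protons across the inner mitochondrial membrane, and complex V, the ATP synthase, makes ATP from the gradient. In steroid-producing cells the side chain of cholesterol is cleaved inside the mitochondria, so the organelle serves both energy metabolism and steroidogenesis. Metformin, a biguanide used against diabetes, is known to inhibit complex I, which feeds electrons into the same ubiquinone pool as complex II.

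Gene expression was measured on single-colour GeneChip Human Gene 1.0 ST arrays, with 3 arrays for each of 3 conditions. All cells were first plated for 24 h in growth medium and then kept for 48 h in growth medium with serum (normal growth), in medium free of serum (starvation), or in medium free of serum with 10 mM metformin. The growth medium also held insulin, transferrin and selenium, which the methods do not list for the starvation medium, so the loss of serum and the loss of these supplements cannot be told apart. The methods describe 3 independent experiments for normal growth and starvation, whereas the metformin arrays are known from the labels alone and nothing says that they came from separate cultures, so p-values with metformin rest on a spread among arrays that may be purely technical. All results come from 1 tumour cell line, and in bulk RNA a change in the number of cells of a kind and a change in RNA per cell cannot be told apart.

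The deposited values are log2 values, so a difference of 1 is a 2-fold change. The medians of the 9 arrays lay between 6.04 and 6.16, and the arrays correlated with r from 0.984 to 0.997 over all probe sets. Of 11 adrenocortical markers, 8 lay above the array median on every array, among them NR5A1, STAR, CYP11A1 and CYP17A1, while CYP11B1 lay below it on every array. Below the median of every array were 5 of 8 fibroblast markers, 5 of 6 endothelial, 4 of 5 immune and 3 of 7 muscle markers, and none of these 4 lists held a gene that passed the test in any comparison. Among the respiratory genes, 41 of 48 lay above the array median on all 9 arrays. The 6 that lay below it on all arrays were COX4I2, COX7A1, COX7B2, COX8C, ATP5MGL and UQCRBP1. Of these, COX4I2, COX7A1, COX7B2 and COX8C are isoforms known mainly from lung, muscle or testis. COX6B2, the testis isoform of subunit VIb, lay below the median on 4 arrays, and the muscle isoform COX6A2 lay above it on all 9.

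Promoter sequence was available from RefSeq (build GRCh38.p14) for 35 of the 46 protein-coding members, as windows of 300 bases that end 50 bases after the gene start. They were searched on both strands, at exact letters, for motifs of factors known to act on genes of the respiratory chain. The motif of NRF1, CGCATGCGC, was in 6 of the 35 windows (17.1%), and in 2.82% of 14239 windows of genes on the array. The ETS motif CCGGAAGT, the kind bound by GABPA, was in 8 windows (22.9%, against 6.38%), and the YY1 motif AAGATGGC was in 4 (11.4%, against 4.07%). The motif of the estrogen-related receptors, TCAAGGTCA, was in 1 (2.86%, against 0.211%), and the cyclic AMP response element TGACGTCA was in 2 (5.71%, against 2.65%). At least 1 of the 5 motifs was in 17 of the 35 windows. The median GC content was 59% in the members and 63% in the genes on the array. Genes of complex I, 32 with a window, held the NRF1 motif in 12.5%, the ETS motif in 6.25% and the YY1 motif in 18.8%. These are matches of letters and not measured binding.

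**Figure D1:**
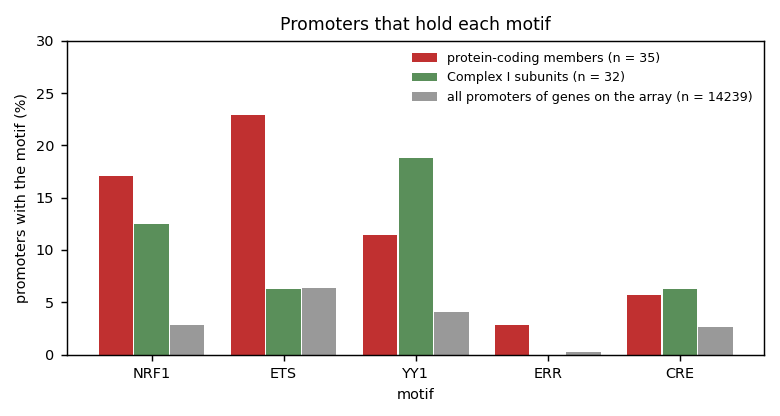
Share of promoter windows of 300 bases that hold each motif on either strand, in percent, for 35 protein-coding members, 32 complex I subunits and 14239 genes on the array. The NRF1 bar of the members stands at 17.1% against 2.82% for the genes on the array, and the ETS bar at 22.9% against 6.38%.

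The bases upstream of 4 genes are printed, and no comparison below used them. Of these genes, UQCRC2 passed the test and COX6B2 showed the largest difference. ATP5F1C and SDHD stayed within 0.06 of 0 in all comparisons and hold the NRF1 motif. Each line gives the 250 bases before the gene start, 5′ to 3′ on the strand of the gene, with matches to any of the 5 motifs in capitals. The first is UQCRC2 (chr16:21953111-21953360, plus strand), then COX6B2 (chr19:55354720-55354969, minus strand), ATP5F1C (chr10:7787927-7788176, plus strand) and SDHD (chr11:112086623-112086872, plus strand), all in GRCh38.p14.
UQCRC2: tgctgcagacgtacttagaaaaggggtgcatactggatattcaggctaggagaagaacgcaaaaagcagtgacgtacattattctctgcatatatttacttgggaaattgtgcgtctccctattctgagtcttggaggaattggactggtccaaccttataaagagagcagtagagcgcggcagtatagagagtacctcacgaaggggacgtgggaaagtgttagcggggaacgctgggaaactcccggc
COX6B2: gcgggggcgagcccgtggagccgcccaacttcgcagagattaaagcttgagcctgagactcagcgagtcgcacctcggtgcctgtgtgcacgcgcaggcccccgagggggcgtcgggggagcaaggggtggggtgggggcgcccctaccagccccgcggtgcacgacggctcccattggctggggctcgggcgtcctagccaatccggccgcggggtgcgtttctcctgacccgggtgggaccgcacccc
ATP5F1C: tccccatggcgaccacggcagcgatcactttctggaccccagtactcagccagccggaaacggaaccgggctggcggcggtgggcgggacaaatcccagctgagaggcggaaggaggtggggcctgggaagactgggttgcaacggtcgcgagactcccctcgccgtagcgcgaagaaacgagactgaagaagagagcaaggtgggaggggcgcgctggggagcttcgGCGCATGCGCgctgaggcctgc
SDHD: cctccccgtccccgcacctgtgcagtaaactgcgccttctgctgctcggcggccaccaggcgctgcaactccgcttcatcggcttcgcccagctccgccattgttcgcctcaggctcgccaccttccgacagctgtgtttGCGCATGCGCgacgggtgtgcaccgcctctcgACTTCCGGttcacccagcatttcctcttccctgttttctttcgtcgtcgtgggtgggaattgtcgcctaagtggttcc

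The windows of UQCRC2 and COX6B2 held none of the 5 motifs, which says only that these letters do not occur in them. In ATP5F1C the NRF1 motif lay between positions -22 and -13 from the gene start, on both strands in overlapping copies, since the motif is nearly its own reverse complement. SDHD held the same pair between -110 and -101, the ETS motif from -78 to -71, and, beyond the printed stretch, the motif of the estrogen-related receptors from 11 to 19. The 6 members with the NRF1 motif were SDHD, COX6A1, ATP5F1C, ATP5MC2, ATP5ME and ATP5PF, and their log2 differences between metformin and starvation ran from -0.17 for ATP5PF to 0.09 for ATP5MC2. The YY1 motif was in UQCRC1, ATP5PB, ATP5PF and ATP5PO.

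**Figure D2:**
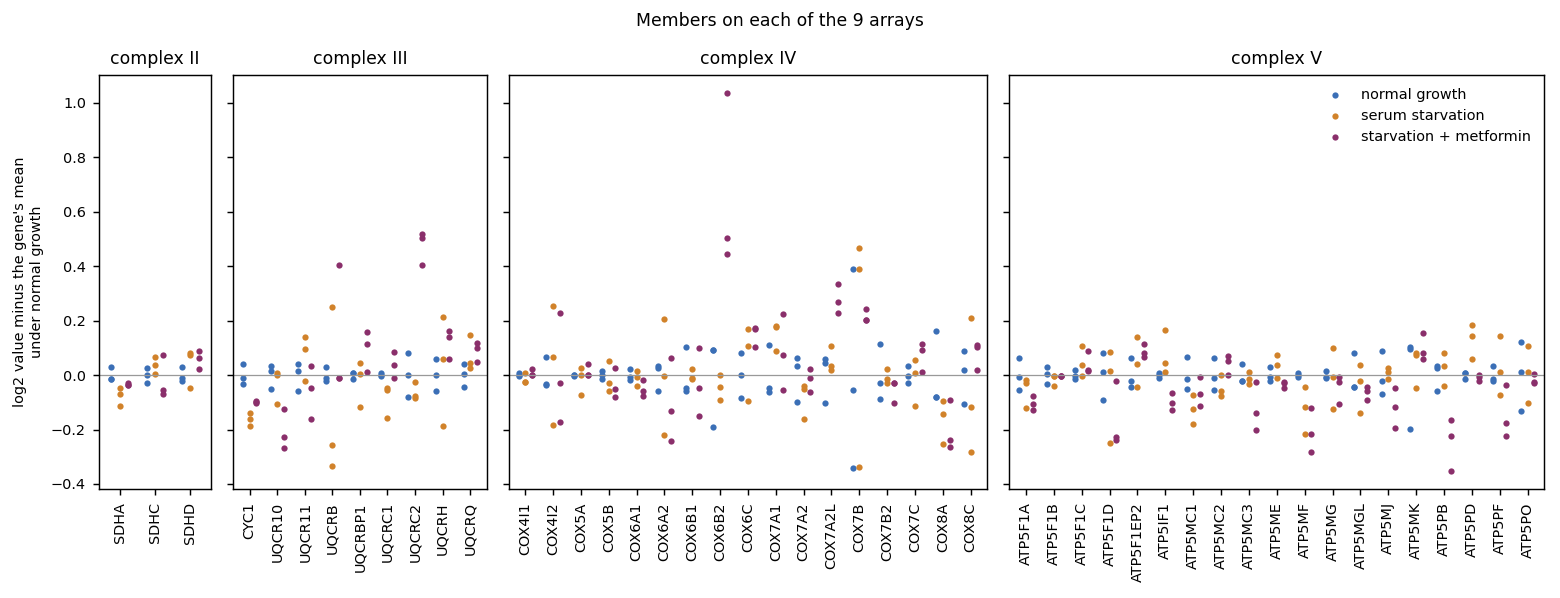
Each of the 48 members on each of the 9 arrays, as the log2 value minus the mean of the gene under normal growth, with a point per array, colours for the 3 conditions and a panel per complex. Most genes stay close to 0, while the metformin points of UQCRC2 and COX6B2 lie above all others of their gene.

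Across conditions these genes varied little. The range of a member over the 9 arrays, highest minus lowest log2 value, had a median of 0.25, and it was under 0.5 for 44 of the 48 (91.7%). Over all 18417 genes the median range was 0.41, and 66.4% stayed under 0.5. Among genes above the median on every array, which takes the dim genes out, 92.7% of the 41 members and 69.5% of 10952 genes stayed under 0.5. This filter sets only a lower limit and does not match the genes by brightness, and whether brightness plays a part was not tested. The smallest range was 0.05 for COX4I1, the common form of subunit IV, followed by 0.07 for ATP5F1B, the catalytic beta subunit of ATP synthase. COX6A1 and COX5A followed with 0.10 and 0.11. The 4 genes with a range over 0.5 were COX6B2 (1.22), COX7B (0.81), UQCRB (0.74) and UQCRC2 (0.60). ATP5F1B had 12.68, 12.62 and 12.66 under normal growth, 12.65, 12.61 and 12.65 under starvation, and 12.65 on each metformin array. The conditions overlapped for this gene in every comparison. Starvation replicate B was the lowest of the 9 arrays for 14 of the 48 members, with a median deviation of -0.03 over the members and -0.10 over those of complex III from their mean over the arrays.

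Starvation against normal growth asked whether these genes responded to the withdrawal of serum and supplements. None of the 48 members passed an adjusted p of 0.05 in limma in either direction. Of all genes, 0.0652% passed as higher and 0.163% as lower, so hardly any member would be called at that rate. At an unadjusted p under 0.05, 1 member was higher (ATP5PD) and 1 lower (CYC1), where 4.12% of all genes were higher and 5.77% lower. All 48 differences lay within 0.2 of 0 on the log2 scale, as did 92.5% of all genes. The 95% interval lay inside a 1.5-fold change in either direction for 47 members (97.9%), beside 97% of all genes. The exception was COX7B with an interval from -0.51 to 0.86. The conditions did not overlap for 8 members (16.7%), where the share over all genes was 16.5%. Among genes above the median on every array it was 19.5% of 41 members and 23.3% of 10952 genes. The median log2 difference was -0.009 over the members and -0.001 over all genes.

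CYC1, cytochrome c1 of complex III, had the most marked difference in starvation by its unadjusted p. Its values were 9.65, 9.57 and 9.60 under normal growth, 9.46, 9.42 and 9.45 under starvation, and 9.51, 9.50 and 9.51 with metformin. The starved arrays were lower than every array of normal growth, and the metformin arrays lay between the 2 groups. The difference of starvation from normal growth was -0.16 (SE 0.04, unadjusted p = 0.00903, adjusted p = 0.341 from limma).

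ATP5PD, subunit d of the peripheral stalk of ATP synthase, had 10.60, 10.57 and 10.60 under normal growth and 10.78, 10.65 and 10.73 under starvation. The groups did not overlap, with a difference of 0.13 (SE 0.05, unadjusted p = 0.0387, adjusted p = 0.575 from limma). With metformin ATP5PD had 10.58, 10.59 and 10.57, close to normal growth.

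COX8A, the common form of subunit VIII, had 10.35, 10.36 and 10.60 under normal growth, 10.18, 10.29 and 10.34 under starvation and 10.17, 10.20 and 10.34 with metformin. Its difference in starvation was -0.16 and neither group overlapped normal growth. Without normal growth replicate C, the highest array, the difference was -0.08. ATP5MC1, which codes for subunit c of the membrane rotor, had 12.38, 12.26 and 12.29 under normal growth, 12.18, 12.13 and 12.23 under starvation and 12.20, 12.30 and 12.24 with metformin. Starved arrays lay below normal growth (difference -0.13), and the metformin arrays overlapped both.

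COX7B, a small subunit of complex IV, had the largest positive difference in starvation, 0.17, with an SE of 0.28. It had 8.47, 7.74 and 8.03 under normal growth, 8.47, 7.75 and 8.55 under starvation, and 8.29, 8.32 and 8.29 with metformin. Its 2 lowest arrays were the B replicates of normal growth and starvation, and the difference ran from 0.005 to 0.43 over the alternatives. COX7A1, the muscle form of subunit VIIa, had 4.93, 4.91 and 5.08 under normal growth, 5.06, 5.16 and 5.15 under starvation and 5.04, 4.92 and 5.20 with metformin. All of these lie below the array median, and the starved arrays overlapped normal growth.

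**Figure D3:**
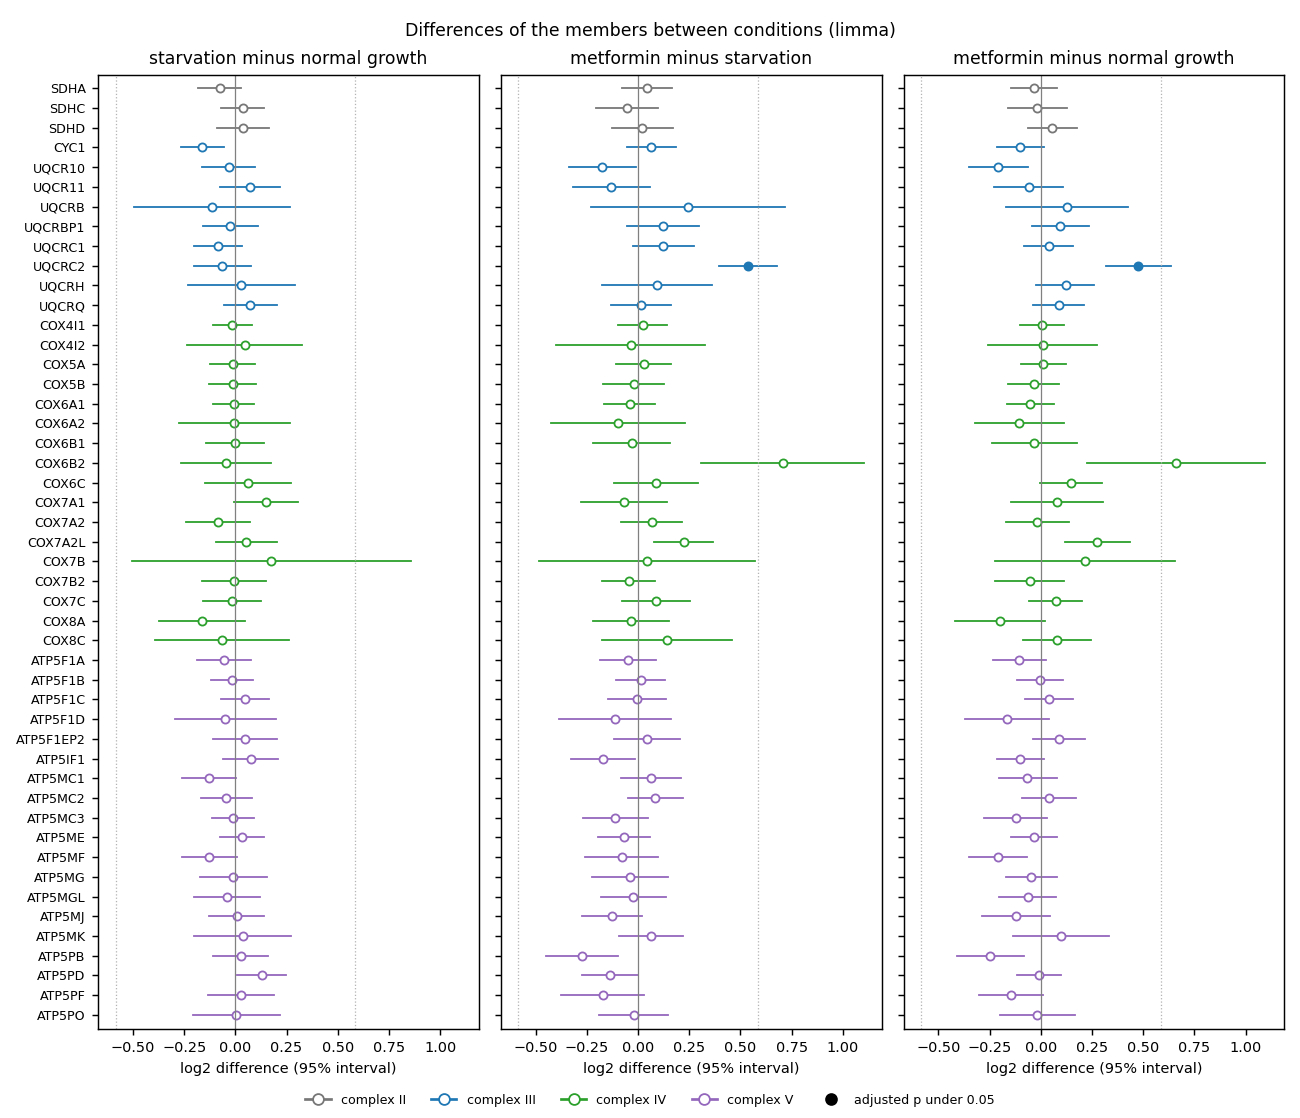
Log2 difference of each member in the 3 comparisons from limma, as a point with its 95% interval, coloured by complex. Filled points passed an adjusted p of 0.05, and dotted lines mark a 1.5-fold change. UQCRC2 is the filled point in both metformin panels (0.54 and 0.48), and no point is filled in the starvation panel.

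Metformin was compared with starvation, from which it differs by the drug alone in the labels, and with normal growth, from which it differs by the drug and the medium. These comparisons share the metformin arrays and are not independent of each other. Nothing says whether the metformin arrays were cultured or processed together with the others. Against starvation 1 member, UQCRC2, was higher and 0 were lower in limma, where 3.14% of all genes passed as higher and 2.89% as lower. Against normal growth UQCRC2 was again the member that was higher and 0 were lower, with 6.15% of all genes higher and 6.36% lower. The background shares against normal growth rest on all arrays of that group, where 1133 genes were called higher and 1172 lower. The genes called fell to 173 and 187 without its replicate A, 171 and 200 without B and 208 and 201 without C. Without metformin replicate A they were 552 and 662. Against starvation, 578 were called higher and 532 lower. These fell to 0 and 0 without metformin replicate A or any single starvation array. They were 291 and 282 without metformin replicate B and 406 and 312 without C. Without adjustment, at p under 0.05, each comparison had 3 members higher and 3 lower. The shares over all genes were 12.3% higher and 11.3% lower against starvation, and 13.5% and 15% against normal growth, so the members were not above the background. No member that passed changed by 2-fold. The groups did not overlap for 12 members (25%) against starvation, where the share over all genes was 30.9%, and for 18 members (37.5%) against normal growth, where it was 35.8%. Among genes above the median on every array, the share against starvation was 26.8% of 41 members and 44.4% of 10952 genes. Against normal growth it was 39% of these members and 51.2% of these genes.

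UQCRC2 codes for core protein 2 of complex III, a subunit on the matrix side that is needed for the assembly of the complex. Its log2 values were 10.73, 10.81 and 10.90 under normal growth, 10.74, 10.73 and 10.79 under starvation, and 11.32, 11.22 and 11.33 with metformin. Every metformin array lay above the other 6, while normal growth and starvation overlapped. The gene was 1.45-fold higher with metformin than under starvation (log2 difference 0.54, SE 0.06, adjusted p = 0.0165 from limma), and 1.39-fold higher than under normal growth (0.48, SE 0.06, adjusted p = 0.0137 from limma). Over 15 alternatives the difference stayed between 0.51 and 0.57 against starvation and between 0.44 and 0.52 against normal growth. The call against starvation was lost without metformin replicate A (adjusted p = 0.0698 from limma), starvation replicate A (0.103), B (0.0616) or C (0.107), and in each of these 4 fits 0 of the 18417 genes passed. Against normal growth, among fits that left out an array, it was lost without normal growth replicate A (0.0669) or B (0.0705).

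The partner of UQCRC2 in the core of complex III, UQCRC1, had 8.85, 8.84 and 8.84 under normal growth, 8.68, 8.79 and 8.79 under starvation, and 8.83, 8.88 and 8.93 with metformin. The metformin arrays lay above the starved arrays by a mean of 0.12 and overlapped normal growth (difference 0.04), and neither difference passed. UQCRB, which helps to bind ubiquinone, had 6.52, 6.54 and 6.57 under normal growth, 6.79, 6.21 and 6.29 under starvation, and 6.95, 6.54 and 6.54 with metformin. Its difference of 0.24 between metformin and starvation had an interval from -0.23 to 0.72, with replicate A highest in both groups. It was 0.10 without metformin replicate A, 0.42 without starvation replicate A and 0.13 without starvation replicate B.

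UQCR10, a small subunit of complex III, had 10.20, 10.12 and 10.18 under normal growth, 10.17, 10.06 and 10.17 under starvation, and 9.90, 10.04 and 9.94 with metformin. The metformin arrays lay below all others, with differences of -0.17 from starvation (adjusted p = 0.221 from limma) and -0.21 from normal growth (adjusted p = 0.0941 from limma), and neither passed. The other members of complex III, UQCR11, UQCRH, UQCRQ and the pseudogene UQCRBP1, stayed within 0.13 of 0 in all comparisons.

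**Figure D4:**
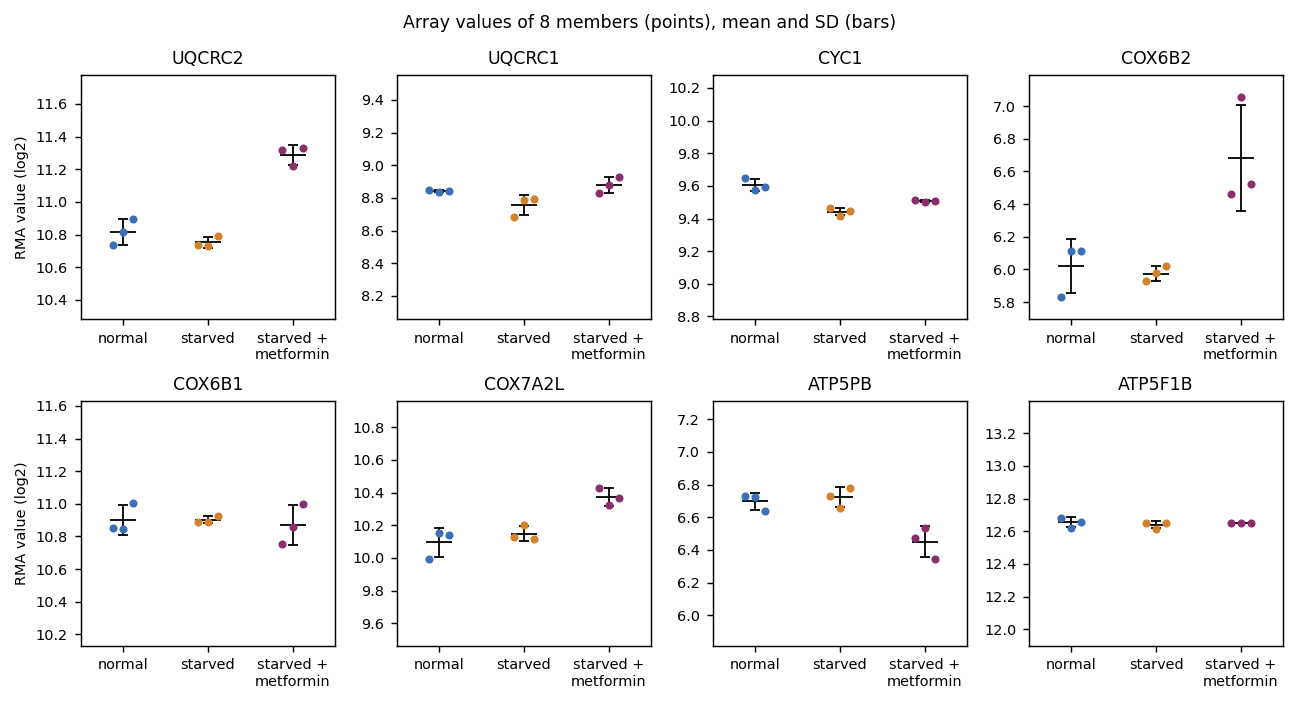
Log2 values of 8 members on the 3 arrays of each condition, with the mean and the SD as bars, and with axes that cover the same span of log2 units in every panel but do not start at 0. UQCRC2 and COX6B2 are higher on all metformin arrays, ATP5PB is lower on all of them, and ATP5F1B lies within 0.07 over all 9 arrays.

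In complex IV, none of the 17 members passed in limma, and without adjustment COX6B2 and COX7A2L were higher at p under 0.05 in both metformin comparisons. The shares of all genes that were higher were 12.3% against starvation and 13.5% against normal growth, so this count was not above the background. The largest difference of all 48 was that of COX6B2, at 0.71 against starvation (1.63-fold, SE 0.16, adjusted p = 0.0759 from limma) and 0.66 against normal growth (adjusted p = 0.0788 from limma). Its values were 5.83, 6.12 and 6.12 under normal growth, 5.93, 5.98 and 6.02 under starvation, and 6.46, 7.06 and 6.52 with metformin. All metformin arrays lay above the other 6, and metformin replicate B stood apart from the other two. Without that array the difference from starvation was 0.52 and passed (adjusted p = 0.0406 from limma). The difference from normal growth was then 0.47 and did not pass (adjusted p = 0.0829 from limma). Leaving out any other array gave no call for COX6B2 in either comparison. The common form of the same subunit, COX6B1, had 10.86, 10.85 and 11.01 under normal growth, 10.89, 10.89 and 10.93 under starvation, and 10.75, 10.86 and 11.00 with metformin, with overlap of all conditions.

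COX7A2L, a relative of subunit VIIa that joins complexes III and IV into supercomplexes, had 9.99, 10.15 and 10.14 under normal growth, 10.13, 10.20 and 10.11 under starvation, and 10.43, 10.32 and 10.36 with metformin. Metformin arrays were the highest, by 0.22 against starvation (SE 0.06, adjusted p = 0.102 from limma) and by 0.28 against normal growth (SE 0.06, adjusted p = 0.0565 from limma). COX7A2 itself differed by 0.07 and -0.02. COX6C, another small subunit, was 0.15 above normal growth without overlap. In the fits of 6 arrays with all probe sets, neither COX6B2 nor the other isoforms of lung, muscle and testis had a difference that passed. These others are COX4I2, COX6A2, COX7A1, COX7B2 and COX8C. COX6B2 passed in 4 of 15 alternatives against starvation and in 3 of 15 against normal growth.

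Among the 19 members of complex V, the ATP synthase, none passed in limma in any comparison. Without adjustment 2 of the 19 were lower at p under 0.05 in each metformin comparison. The shares of all genes that were lower were 11.3% against starvation and 15% against normal growth, so these counts were not above the background. With metformin 14 of the 19 had a negative difference from starvation and 15 from normal growth, and both counts were 15 after a shift of the arrays to equal medians or a further quantile normalization. Over all genes, 10440 and 10249 of 18417 had a negative difference in these comparisons, before either setting was applied. The 2 settings also lowered the median over all probe sets. Against starvation it went from -0.007 to -0.033 and -0.032, and against normal growth from -0.003 to -0.027 and -0.021. The median difference of complex V was -0.05 and -0.06, while that of complex III was 0.09 in both and that of complex IV 0.02 and 0.009. The interval lay inside a 1.5-fold change for all 19 members in every comparison.

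ATP5PB, subunit b of the peripheral stalk that holds the catalytic head still, had the most negative differences of the complex with metformin. It had 6.73, 6.72 and 6.64 under normal growth, 6.73, 6.66 and 6.78 under starvation, and 6.47, 6.53 and 6.35 with metformin. The metformin arrays lay below all others, by 0.27 (SE 0.07, adjusted p = 0.103 from limma) and by 0.25 (SE 0.07, adjusted p = 0.0814 from limma). Of the other stalk subunits, ATP5PF differed by -0.17 and -0.14, ATP5PD by -0.14 and -0.009, and ATP5PO by -0.02 in both.

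ATP5IF1, the inhibitor that stops ATP synthase from running backwards, had 8.25, 8.26 and 8.25 under normal growth, 8.30, 8.26 and 8.42 under starvation, and 8.15, 8.19 and 8.12 with metformin. The metformin arrays were the lowest, with a difference of -0.17 from starvation (adjusted p = 0.207 from limma). ATP5MF, subunit f of the membrane part, had 10.36, 10.36 and 10.35 under normal growth, 10.31, 10.14 and 10.24 under starvation, and 10.08, 10.23 and 10.14 with metformin. Its difference from normal growth was -0.21 (SE 0.06, adjusted p = 0.0871 from limma), and the metformin and starved arrays overlapped.

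The catalytic head stayed close to 0, with differences from starvation of -0.05 for ATP5F1A (alpha), 0.01 for ATP5F1B (beta) and -0.007 for ATP5F1C (gamma). ATP5F1D (delta) differed by -0.11 with overlap. The 3 genes for subunit c, which code for the same mature protein, differed by 0.06 (ATP5MC1), 0.09 (ATP5MC2) and -0.11 (ATP5MC3). ATP5F1EP2 is a pseudogene of the epsilon subunit, and its probe set and that of UQCRBP1 may also measure their parent genes, so their values are uncertain.

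No member of complex II passed in any comparison, with or without adjustment. SDHA, the flavoprotein that oxidises succinate, had 11.33, 11.33 and 11.38 under normal growth, 11.27, 11.30 and 11.23 under starvation, and 11.31, 11.31 and 11.31 with metformin. The 3 conditions did not overlap, but no difference exceeded 0.08 in size. The membrane anchors SDHC and SDHD stayed within 0.06 of 0 in all comparisons.

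Over all 48 members the size of the difference, without its sign, had a median of 0.045 in starvation, 0.067 for metformin against starvation and 0.079 for metformin against normal growth. The same medians over all genes were 0.059, 0.112 and 0.110, and over the genes above the median on every array 0.058, 0.134 and 0.143. Within 0.2 of 0 lay 89.6% and 85.4% of the members in the metformin comparisons, and 72.5% and 71.3% of all genes. The 95% interval lay inside a 1.5-fold change for 45 members (93.8%) in each, beside 84.7% and 86.9% of all genes. The members whose interval reached past it were UQCRC2, COX6B2 and UQCRB against starvation, and UQCRC2, COX6B2 and COX7B against normal growth.

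**Figure D5:**
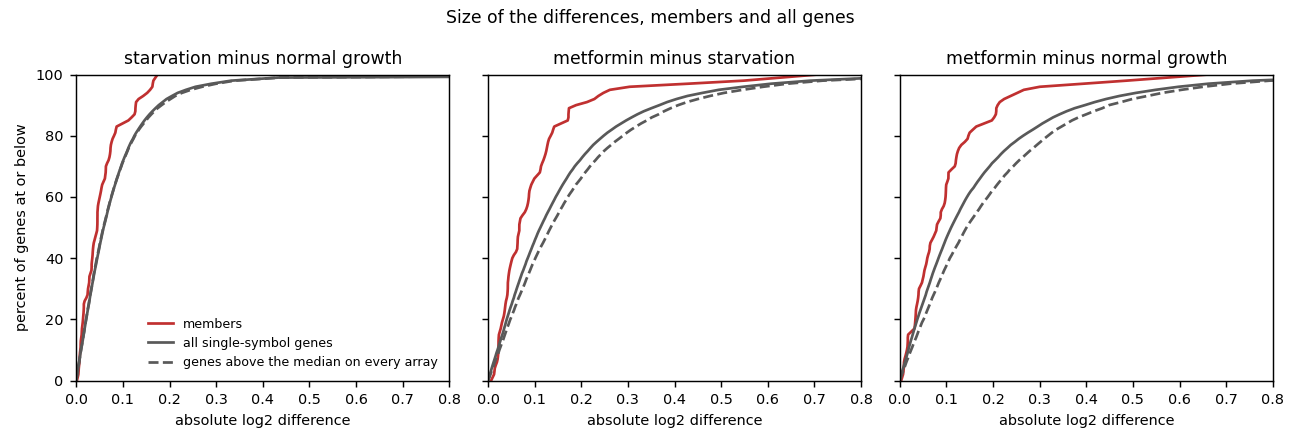
Percent of genes (vertical axis) whose log2 difference is at or below a given size, without its sign (horizontal axis), in the 3 comparisons, for the 48 members, all 18417 genes and the 10952 genes above the median on every array. The curve of the members runs above the others over most of its course, and 89.6% of members against 72.5% of all genes lie within 0.2 for metformin against starvation.

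The other genes of the pathway are given by list. Of the 34 measured subunits of complex I, the enzyme that metformin is known to inhibit, none passed in limma in starvation or for metformin against starvation. At an unadjusted p under 0.05, 3 were higher and 5 lower with metformin than under starvation, where 12.3% of all genes were higher and 11.3% lower. Against normal growth 3 were lower with metformin and 0 higher: NDUFB3 (-0.36, adjusted p = 0.0212 from limma), NDUFA11 (-0.33, adjusted p = 0.0293) and NDUFB7 (-0.25, adjusted p = 0.0424), all accessory subunits. At an unadjusted p under 0.05, 11 were lower and 1 was higher in that comparison, for which the shares over all genes were 6.36% called lower and, without adjustment, 15% lower and 13.5% higher. No test compared complex I with the members.

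Of the assembly factors, 2 passed against starvation and 2 against normal growth over 4 lists, where 6.03% and 12.5% of all genes passed in either direction. SDHAF4, which helps to mature SDHA, was one of 3 measured for complex II. It was 0.73 higher with metformin than under normal growth (adjusted p = 0.00937 from limma). None of these 3 passed against starvation, where their largest difference was 0.64. UQCC2, which helps to make cytochrome b, was one of 6 for complex III and was 0.32 higher than under starvation (adjusted p = 0.0341 from limma). COX18, which inserts a subunit of complex IV into the membrane, was one of 21 and was higher by 0.31 against starvation (adjusted p = 0.0383 from limma) and by 0.29 against normal growth (adjusted p = 0.031). None of the 4 measured factors for ATP synthase passed.

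Of 8 measured carriers and channels, 1 passed (12.5%), SLC25A4, an ADP/ATP carrier that exports the product of complex V. Of all genes, 6.03% passed in either direction against starvation and 12.5% against normal growth, so the latter count was not above the background. Of the 8, 3 had a negative difference from starvation and 4 from normal growth, down to -0.21 in both. SLC25A4 had 8.96, 9.10 and 9.04 under normal growth, 9.21, 9.05 and 9.17 under starvation, and 9.60, 9.62 and 9.56 with metformin. The rise was 0.45 against starvation (adjusted p = 0.0257 from limma) and 0.56 against normal growth (adjusted p = 0.0072 from limma), and all metformin arrays lay above the other 6. Cytochrome c itself (CYCS), which links complexes III and IV, differed by 0.06 and -0.04. Of 15 transcription regulators TFB2M, a factor for transcription of mitochondrial DNA, was lower with metformin than under normal growth (-0.32, adjusted p = 0.0259 from limma). This is 6.67% of the list, beside 6.36% of all genes called lower, so the count was near the background. None of the 15 passed against starvation. TFAM, which packages that DNA, had 9.54, 9.44 and 9.42 under normal growth, 9.51, 9.41 and 9.46 under starvation, and 9.18, 9.15 and 8.90 with metformin. Its differences of -0.38 (adjusted p = 0.0804 from limma) and -0.39 (adjusted p = 0.0523 from limma) did not pass. NRF1 itself differed by -0.02 and -0.08, GABPA by -0.11 and -0.16, and PPARGC1A, a coactivator of mitochondrial genes, by 0.07 and 0.01. The mean of the 11 adrenocortical markers lay between 9.45 and 9.56 on the arrays of normal growth, 9.16 and 9.21 under starvation, and 8.92 and 9.16 with metformin. The adrenocortical genes HSD3B2, SULT2A1 and NR5A1 were lower and MC2R higher with metformin in both comparisons, and whether this bears on the respiratory genes was not tested.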

How the data were processed

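The authors' deposited values were log2 expression values made by RMA, which corrects background, quantile normalizes probes and summarises probe sets. Affymetrix Expression Console, RMA and limma are named in the submitters' processing notes, with no versions. No normalization was added. Arrays have no read depth, and precision is limited by having 3 per group. An exact permutation test of 3 against 3 cannot go below p = 0.1.

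Of 33297 probe sets, 19460 have 1 gene symbol, 1754 several and 12083 none. Each comparison was fitted on its 6 arrays with limma 3.58.1 (lmFit, eBayes; R 4.3.3), without a block, with Benjamini-Hochberg adjustment over all probe sets. The method was tested on simulated data. Named were members at an adjusted p under 0.05, and the 3 largest positive and 3 largest negative differences per comparison. Other members were named with their complex or isoform pair, and up to 4 called genes per pathway list. TFAM, CYCS, NRF1, GABPA, PPARGC1A and the adrenocortical genes were named after their values were seen. The members and lists were chosen with earlier results of these data known. The dimmer probe sets of SDHC, SDHD, COX6A1 and ATP5MK differed by under 0.05, and none passed. Pairs of arrays shared 863 to 2126 values that were exactly equal as deposited, before rounding. Promoters came from RefSeq (GRCh38.p14). Protein sequences were not used here.

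Alternatives were 1 fit of all 9 arrays, a common array median, a second quantile normalization, dropping probe sets whose mean fell below the 40th percentile, single-symbol probe sets, the mean of probe sets, trend and robust options, the methods' t-test, a replicate block and leaving out each array.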

Additional observations from a re-analysis of the deposited data

How the results depend on the processing

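In starvation the count of members that passed was 0 in both directions under every alternative run. For metformin against starvation the count of higher members, 1, became 2 with all 9 arrays in 1 fit, without dim probe sets, with single-symbol probe sets and with the trend and robust options, and ran from 0 to 2 when an array was left out. COX6B2 was the gene added in the first 3 of these, and COX7A2L with the trend and robust options. The lower count of 0 became 1 (ATP5PB) with all 9 arrays. Against normal growth the higher count, 1, became 3 with all 9 arrays, without dim probe sets and with single-symbol probe sets, 2 with quantile normalization again and with trend and robust options, and 0 to 1 when an array was left out. The lower count of 0 became 1 with all 9 arrays and with single-symbol probe sets, and 2 without dim probe sets and with trend and robust options. The genes added were COX6B2, COX7A2L, ATP5PB, ATP5MF and UQCR10. A common array median moves every gene in a comparison by the same amount. With it the median difference of the members went from -0.014 to -0.040 against starvation and from -0.017 to -0.040 against normal growth. The median over all probe sets went from -0.007 to -0.033 and from -0.003 to -0.027. With quantile normalization again the median of the members was -0.01 against normal growth. When an array was left out it ran from -0.018 to 0.022 against starvation and from -0.018 to -0.004 against normal growth. Apart from the common array median, the causes of these changes were not tested.

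With the replicate letter as a replicate block, 0 members and 0 of all genes passed in every comparison, and limma's adjusted p for UQCRC2 was 0.114 against starvation and 0.0728 against normal growth. The labels do not say whether arrays with the same letter came from the same experiment. Their deviations from the mean of their condition correlated from -0.25 to 0.29 over 9 pairs, and 2 pairs exceeded 0.1. Between normal growth and starvation the same letters gave 0.090, 0.134 and 0.024, and different letters -0.110 to 0.040. Between starvation and metformin the same letters gave 0.294, -0.137 and -0.249, and different letters -0.383 to 0.440. These correlations do not settle whether the letters pair the arrays. Of the values of named members under other settings, 242 kept their side of the threshold, 19 gained a call, 8 lost one and 0 reversed. For UQCRC2 the adjusted p from limma and the other tests ran from 0.00212 to 0.114 against starvation, past the threshold in 10 of 15 alternatives, and from 0.00203 to 0.0728 against normal growth, in 12 of 15. Removal of dim probe sets left 44 members, and for members near the array median, such as COX6B2, background can make a fold too small.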
